A study of Mus musculus with 15 samples.

Results

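The 9 genes described here encode transcription factors and cofactors that set up or maintain the steroid-producing cell of the adrenal cortex: Nr5a1, Nr0b1, Nr4a1, Nr4a2, Nr4a3, Gata4, Gata6, Cited2 and Wt1. They were chosen by gene symbol with earlier results of these data known. Counts among them, set beside all genes below, describe these genes and are no independent evidence. Every probe set annotated to one of these symbols was taken. Each of the 9 genes had exactly 1 probe set, so that 9 of the 32736 probe sets on the array are described, and 9 of the 21439 genes that entered the tests. RNA came from whole adrenal glands of wild type male C57BL/6J mice and was measured on 15 one-colour Affymetrix arrays. Control glands (4 arrays) were taken before any drug. The other mice drank dexamethasone, a synthetic glucocorticoid, for 14 days, and their glands were taken when the drug was stopped (withdrawal, 3 arrays), 3 days later (day 3, 4 arrays) or 7 days later (day 7, 4 arrays). Every array carries the same age label, 6 weeks, and each is called a biological replicate, and nothing says whether animals were pooled. Because control mice were sampled before treatment, drug, recovery and the days elapsed cannot be told apart in a comparison with control.

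Levels are on the log2 scale of the deposited values, where 1 unit is a 2-fold difference. The median gene had a mean level of 2.45, and genes under it are called dim here, since a fall of such a gene has little room to show. The labelled tissue was borne out by its markers. The mean level of 14 steroidogenic genes lay between 8.31 and 8.86 on all arrays, and 7 of 7 measured kidney markers were dim. Whole glands were profiled, so fewer cells of a type and less RNA per cell cannot be told apart in any result below. The values carry no scan date, so a batch could not be examined.

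Dexamethasone acts on the pituitary and lowers ACTH, the peptide hormone that drives the zona fasciculata through its receptor MC2R and cAMP. Steroidogenic factor 1, the product of Nr5a1, is an orphan nuclear receptor without which adrenals and gonads do not form, and it binds the promoters of most genes of steroid synthesis. DAX1, the product of Nr0b1, is an atypical receptor that lacks the usual DNA-binding domain and represses the activity of steroidogenic factor 1. The NR4A receptors are induced rapidly by ACTH and cAMP, GATA6 and GATA4 act with steroidogenic factor 1 on cortical and gonadal promoters, and CITED2 and WT1 help to raise Nr5a1 in the adrenal primordium.

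At withdrawal 2 of the 9 genes differed from control, and both were higher: Nr0b1 by 2.03-fold and Cited2 by 1.90-fold. Over all genes 4.3% passed the same test in that comparison, which was limma's moderated test with a Benjamini-Hochberg adjusted p under 0.05. Between day 3 and withdrawal 1 of the 9 passed, Cited2, which was lower at day 3 (2.25% of all genes passed). Between day 7 and withdrawal 1 of the 9 passed, Nr0b1, which was lower at day 7 (1.88% of all genes). Against control 0 of the 9 passed at day 3, where 0.131% of all genes did, and 0 passed at day 7, where 0.0187% did. Between day 7 and day 3 limma called 0 of the 9 and 0% of all genes, with 3 of the 9 and 1516 of all genes at an unadjusted p under 0.05. Against control, 1 of the 9 was under that unadjusted limit at day 3, beside 2153 of the 21439 genes, and 4 of the 9 at day 7, beside 1275 genes. At withdrawal against control 6 of the 9 were under it, beside 3647 genes. Against withdrawal 3 of the 9 were under it at day 3, beside 2970 genes, and 4 at day 7, beside 2902. A limma F test across the 4 groups, which chooses no pair of groups, passed for Nr0b1 (adjusted p = 0.016) and Cited2 (0.0256), 2 of the 9, against 2.63% of all genes. At withdrawal 534 genes were called higher and 387 lower. Subtracting each array's median, which moves that comparison by -0.11, gave 341 and 853, with Nr0b1 and Cited2 still called as higher. Comparisons that share the control or the withdrawal arrays are not independent of each other.

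**Figure D1:**
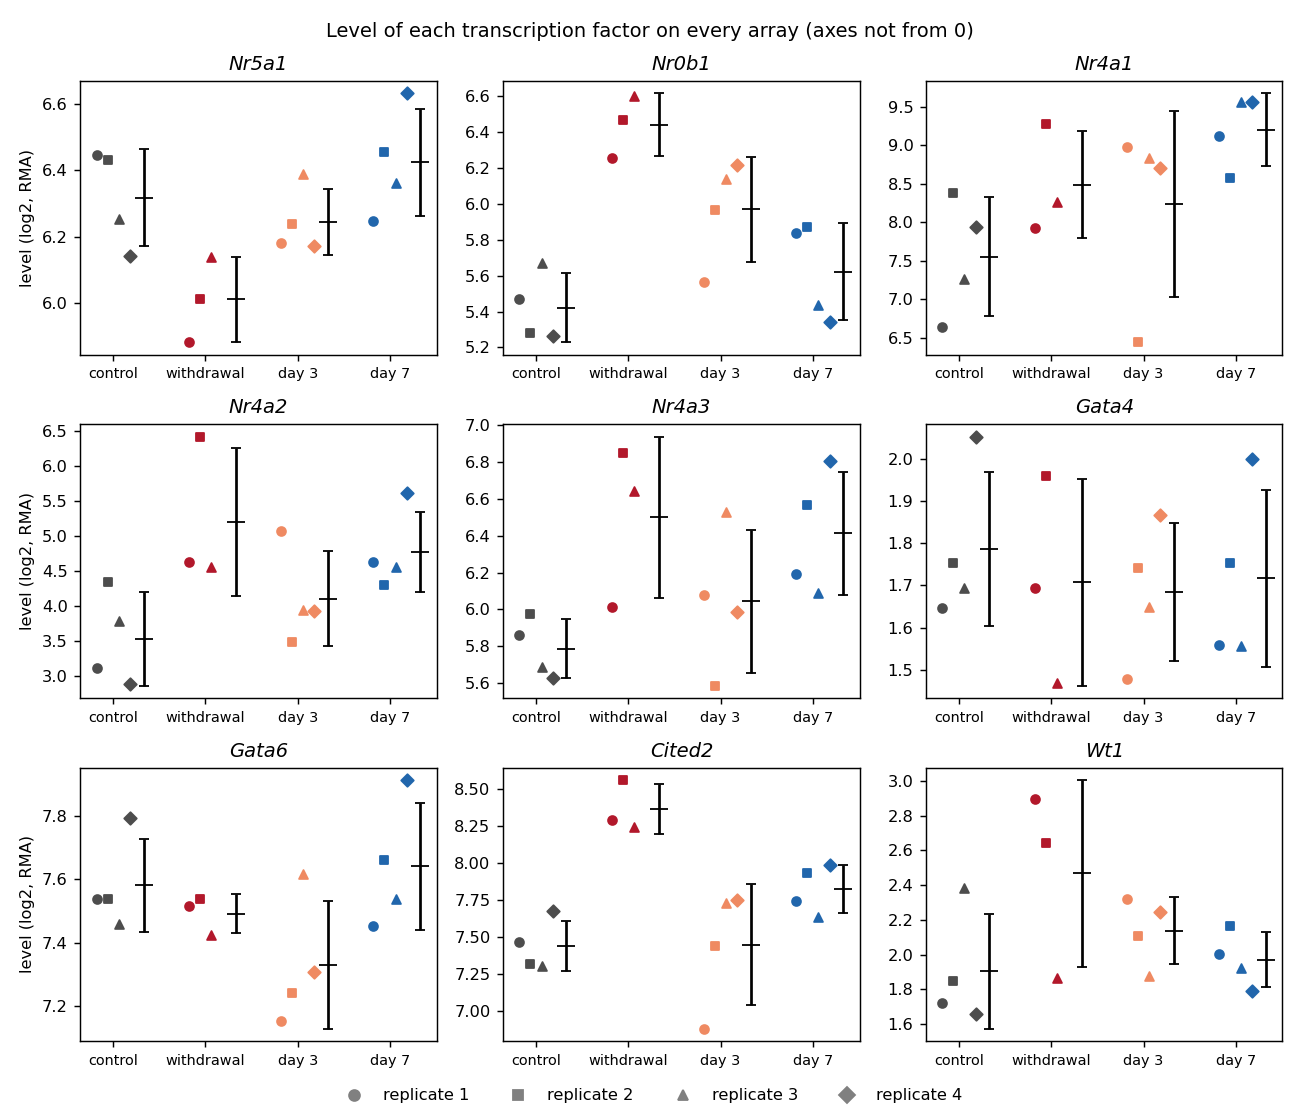
Level (log2) of the 9 genes on every array, 1 panel a gene, with the 4 groups on the horizontal axis; symbols give the replicate number and black bars the group mean ± SD (n = 4, and n = 3 at withdrawal). The 3 withdrawal arrays lie above all controls for Nr0b1, Cited2, Nr4a2 and Nr4a3 and below all controls for Nr5a1. The share of all genes whose groups separate is not given, so separation alone is no result, here or in the text on each gene. Nr4a1 and Nr4a2 have the widest spread within groups.

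Nr5a1 (probe set 17384705) was lowest at withdrawal and highest at day 7, in a narrow range. The controls read 6.44, 6.43, 6.25 and 6.14, and the withdrawal arrays 5.88, 6.01 and 6.14. The day 3 arrays read 6.18, 6.24, 6.39 and 6.17, and the day 7 arrays 6.25, 6.45, 6.36 and 6.63. All 3 withdrawal arrays lay under the lowest array of each other group, by a small margin in the case of control. The other groups overlapped each other. The group means were 6.32 ± 0.15 (SD, n = 4) in control, 6.01 ± 0.13 (n = 3) at withdrawal, 6.24 ± 0.10 (n = 4) at day 3 and 6.42 ± 0.16 (n = 4) at day 7. The difference between withdrawal and control was -0.31 ± 0.11 (standard error; 95% interval -0.55 to -0.07) and did not pass over all genes (limma, adjusted p = 0.165). Day 7 stood 0.41 ± 0.11 above withdrawal (adjusted p = 0.083). That difference passed when the array medians were subtracted (adjusted p = 0.0416) and when dim genes were left out of the fit (0.0439). Day 7 and control differed by 0.11 (-0.12 to 0.33), and day 3 and control by -0.07 (-0.30 to 0.15).

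Nr0b1 (probe set 17536201) was highest at withdrawal, where Nr5a1 was lowest. Controls read 5.47, 5.28, 5.67 and 5.26, and the withdrawal arrays 6.26, 6.47 and 6.60. By day 3 the arrays read 5.56, 5.96, 6.14 and 6.22, and by day 7 they read 5.84, 5.87, 5.44 and 5.34. Every withdrawal array was above every array of the other groups, the day 3 arrays reached from control levels to just under withdrawal, and the day 7 arrays overlapped control. The mean rose from 5.42 ± 0.19 (SD, n = 4) to 6.44 ± 0.17 (n = 3), a difference of 1.02 ± 0.17 with a 95% interval of 0.65 to 1.39 (limma, adjusted p = 0.00364). Over 11 other ways of fitting and 7 fits without 1 array this difference lay between 0.91 and 1.11, with adjusted p from 0.0017 to 0.0214. Day 3, at 5.97 ± 0.29, was 0.47 under withdrawal (adjusted p = 0.212) and 0.55 over control (0.216), so that it could be told from neither end after adjustment.

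At day 7 Nr0b1 stood at 5.62 ± 0.27 and had fallen by 0.82 ± 0.17 from withdrawal (limma, adjusted p = 0.0251). This call was lost in 4 of the 7 fits without 1 array, with an adjusted p of 0.0909 without withdrawal replicate 2, 0.0902 without withdrawal replicate 3, 0.0557 without day 7 replicate 3 and 0.0753 without day 7 replicate 4. With only the 2 groups in the fit the adjusted p was 0.07. The remaining difference from control at day 7 was 0.20, with an interval of -0.14 to 0.54. Across the groups, the order of the Nr0b1 means was withdrawal, day 3, day 7 and control, and that of Nr5a1 was day 7, control, day 3 and withdrawal. Of neighbours in these orders, none passed the test between them.

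**Figure D2:**
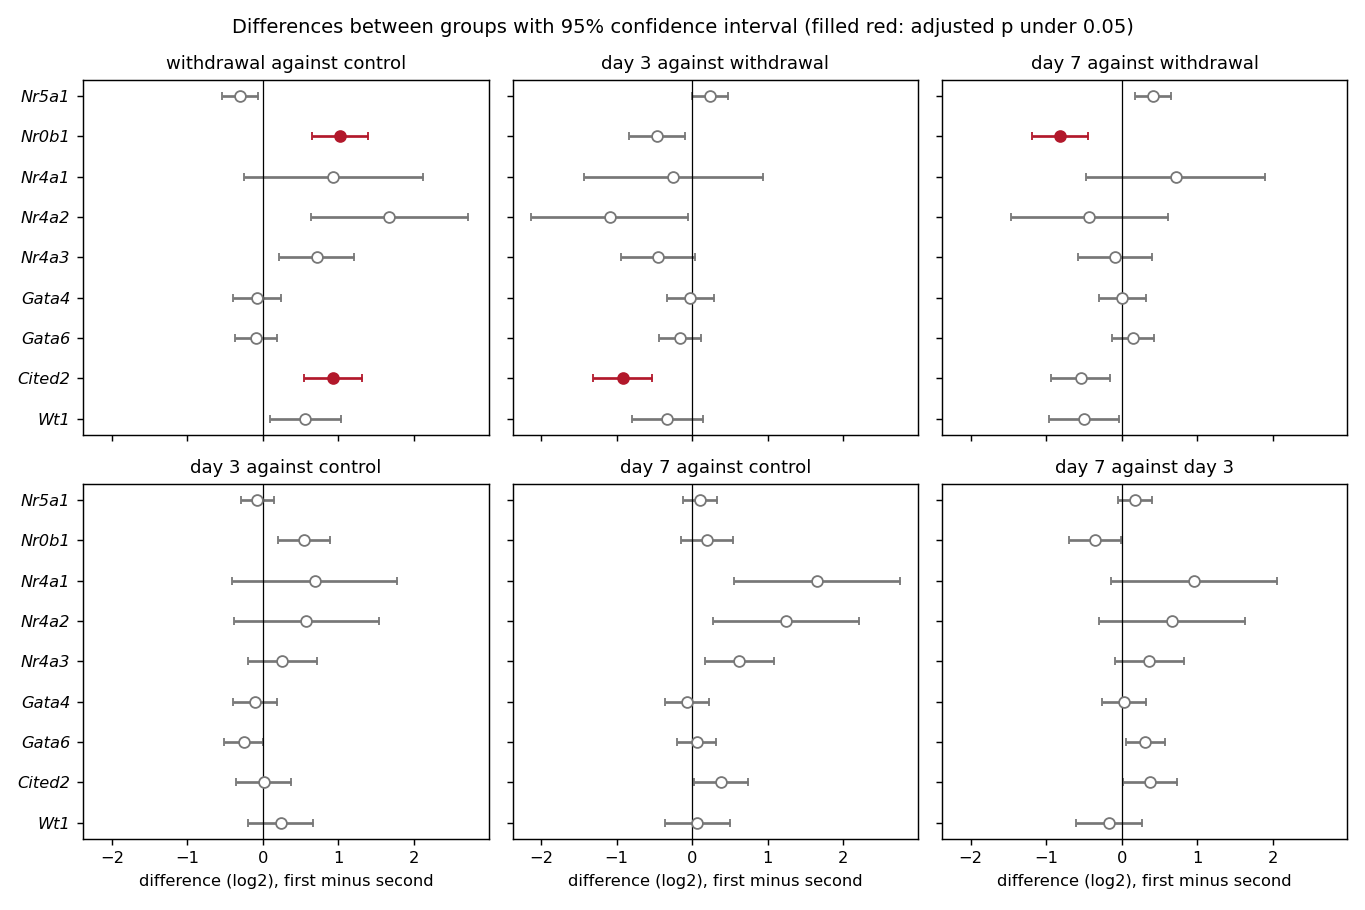
Difference in log2 level between groups (point) with its 95% confidence interval from the limma fit for the 9 genes in 6 comparisons; filled red points passed at an adjusted p under 0.05. The 4 filled points are Nr0b1 and Cited2 at withdrawal against control, Cited2 at day 3 against withdrawal and Nr0b1 at day 7 against withdrawal.

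Several cell type lists moved at withdrawal beside Nr0b1 and Cited2, and their part in these results was not tested. A summed level here is the log2 of the sum of the unlogged levels of a list, so that its brightest markers weigh most. The summed level of 16 macrophage markers ran from 10.17 to 10.34 in control and from 11.57 to 12.09 at withdrawal, and 11 of the 16 passed as higher. For 18 medulla markers it ran from 12.89 to 13.33 and from 13.35 to 13.47, with 4 passing as higher, and for 11 zona glomerulosa markers from 11.27 to 11.43 and from 11.55 to 11.92, with 5 passing as higher. Among 12 capsule markers 1 passed as higher (10.40 to 10.54 and 10.70 to 10.97). The 8 zona fasciculata markers went from 12.87 to 12.90 in control to between 11.99 and 12.10, with 7 lower, and the 12 endothelial markers from 10.57 to 10.70 to between 10.22 and 10.30, with 2 lower. Of 6 T cell markers 2 passed as higher, 5 of them being dim on average, and 0 passed of 7 adipocyte, 6 Schwann and glial, 7 kidney and 8 mesothelial markers (Wt1 among the last). No medulla, glomerulosa, fasciculata or endothelial marker measured was dim on average, while 2 of the macrophage and 2 of the capsule markers were. At day 7 the sums stood at 10.48 to 11.44 for macrophage, 13.01 to 13.46 for medulla and 11.38 to 11.56 for glomerulosa markers.

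Among the genes that steroidogenic factor 1 is known to act on, most that passed at withdrawal were lower. Of 18 listed targets 14 were measured, 7 passed as lower, 2 as higher and 5 did not pass, with a median difference of -0.30 where the median over all genes was -0.01. The lower genes included Mrap, which carries the ACTH receptor to the cell surface, at -1.79 ± 0.13 (limma, adjusted p = 7.6e-06). Scarb1, the lipoprotein receptor that supplies cholesterol, differed by -1.74 ± 0.17 and Cyp21a1, the steroid 21-hydroxylase, by -1.26 ± 0.09. Cyp11b1, which makes corticosterone, differed by -0.73 ± 0.11, Star, which moves cholesterol into mitochondria, by -0.36 ± 0.08. The Star call was lost without withdrawal replicate 1 (adjusted p = 0.0707) or replicate 3 (0.0557). Cyp11a1, the side-chain cleavage enzyme, differed by -0.46 (adjusted p = 0.00418), but its probe set of largest variance gave -0.21 (0.532), so that its probe sets disagree. The genes that passed as higher were the glomerulosa enzymes Hsd3b6, at 1.66 ± 0.32, and Cyp11b2, the aldosterone synthase, at 0.90 ± 0.16. Both are also among the glomerulosa markers above, and Mrap, Scarb1, Cyp21a1, Cyp11b1 and Star are among the fasciculata markers. These targets and the marker lists therefore share values and are not separate observations. The ACTH receptor gene Mc2r differed by -0.13 and did not pass (adjusted p = 0.581).

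After withdrawal the same list turned. At day 3 against withdrawal 7 of 14 passed as higher and 1 as lower (median 0.38), and at day 7 against withdrawal 7 passed as higher and 0 as lower (median 0.37). Scarb1 rose by 1.65 by day 3 and Cyp21a1 by 1.15, while Hsd3b6 fell by 1.81. Inha, the inhibin alpha subunit, rose by 1.33 ± 0.31 by day 3 (limma, adjusted p = 0.0387), a call that was lost without any 1 of the 7 arrays (0.0583 to 0.134). Against control the day 3 glands had 0 of 14 targets past the threshold and the day 7 glands 1, Mrap, at -0.81 ± 0.12 (adjusted p = 0.0362). The Mrap call held in 2 of 8 fits without 1 array (limma, adjusted p up to 0.216). The list was drawn up with earlier results of these data known, so its counts describe these genes and are no independent evidence.

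**Figure D3:**
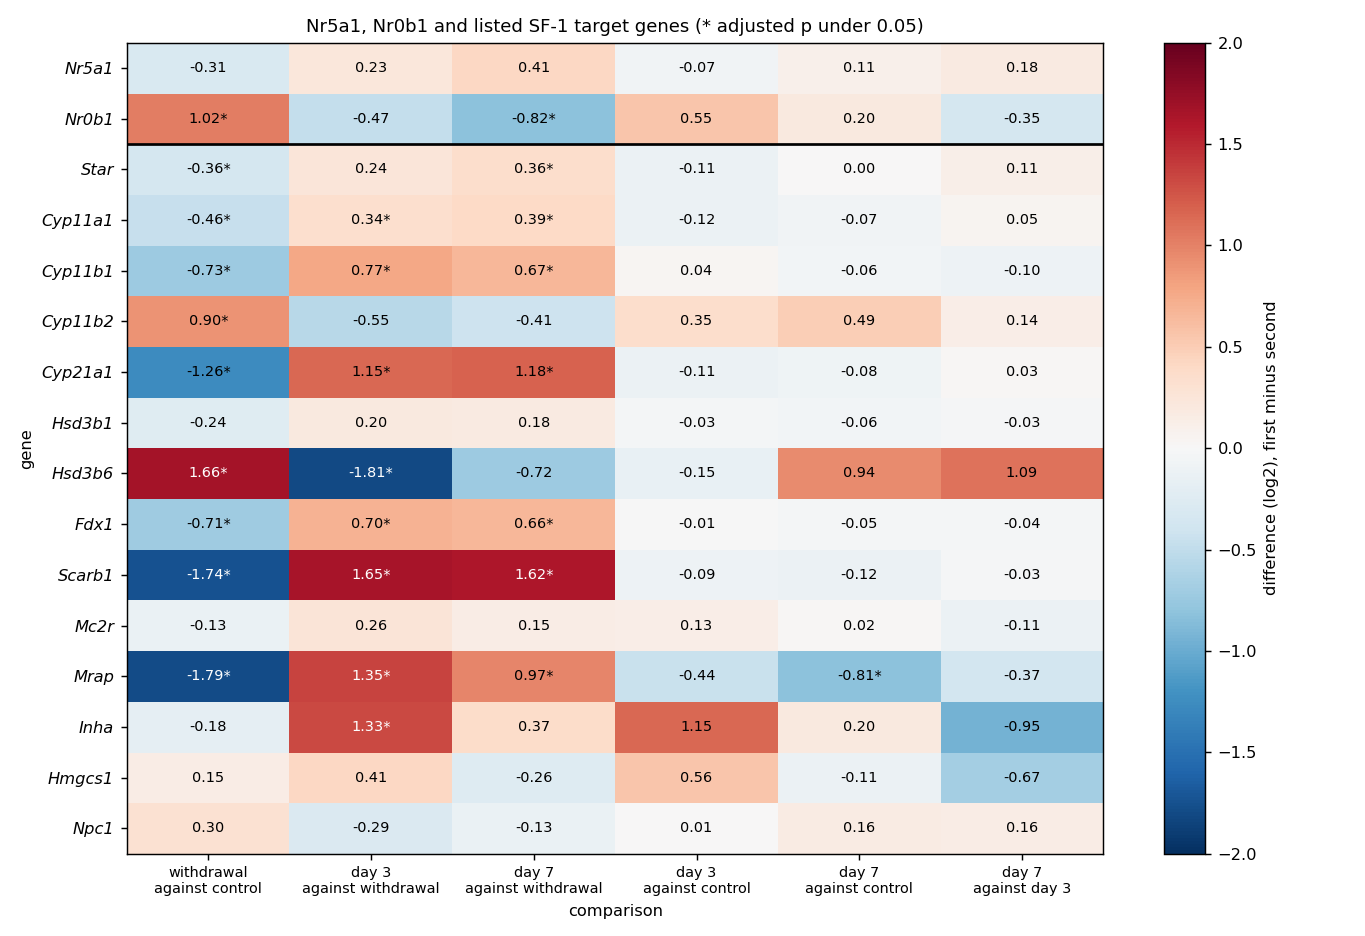
Differences (log2) of Nr5a1, Nr0b1 and 14 listed target genes of steroidogenic factor 1 in the 6 comparisons, printed in each cell and coloured from -2 to 2; an asterisk marks an adjusted p under 0.05. Nr5a1 carries no asterisk, at -0.31 in the first column, beside 7 targets that passed as lower there and 2 that passed as higher.

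Among 24 measured partners and cofactors of these factors, which include coactivators, corepressors and homeobox proteins, 1 passed at withdrawal. Ppargc1a, a coactivator of nuclear receptors, was higher by 0.60 ± 0.14 (limma, adjusted p = 0.0229), from a level of 1.34 in control to 1.94, so that it was dim in both groups. With array medians subtracted it no longer passed (0.0509), nor did it without withdrawal replicate 2 (0.0926) or control replicate 1 (0.064). The median of the list was 0.05, and 0 of the 24 passed in the comparisons of day 3 and day 7 with withdrawal or with control.

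Cited2 (probe set 17231784), a coactivator that WT1 recruits in the primordium, was highest at withdrawal. The controls read 7.46, 7.32, 7.31 and 7.67, and the withdrawal arrays 8.30, 8.56 and 8.25. The day 3 arrays read 6.88, 7.44, 7.73 and 7.75, and the day 7 arrays 7.75, 7.93, 7.64 and 7.99. All 3 withdrawal arrays exceeded all other arrays. Day 3 spread from below the lowest control to above the highest control, and only the lowest day 7 array was under the highest control. The mean rose from 7.44 ± 0.17 (SD, n = 4) to 8.37 ± 0.17 (n = 3), by 0.93 ± 0.18 (95% interval 0.54 to 1.32; limma, adjusted p = 0.0093). Without withdrawal replicate 2, the highest array, the difference was 0.83 with an adjusted p of 0.0562.

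By day 3 the mean of Cited2 was 7.45 ± 0.41, and it had fallen by 0.92 ± 0.18 from withdrawal (limma, adjusted p = 0.0156). That call was lost without withdrawal replicate 2 (adjusted p = 0.0845) and with only the 2 groups in the fit (0.111). The day 3 and control means differed by 0.01, with an interval of -0.35 to 0.37, and the sign of that difference turned when array medians were subtracted. At day 7 the mean was 7.83 ± 0.16, which lay 0.54 under withdrawal (adjusted p = 0.167) and 0.39 over control (0.812). Cited2 fell between withdrawal and day 3, whereas the fall of Nr0b1 passed the test by day 7. The difference between these courses was not tested.

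Wt1 (probe set 17373915), the Wilms tumour zinc finger protein of mesothelium, capsule precursors and gonadal ridge, was dim. The controls read 1.72, 1.85, 2.38 and 1.66, the withdrawal arrays 2.89, 2.64 and 1.86, the day 3 arrays 2.32, 2.11, 1.88 and 2.25, and the day 7 arrays 2.00, 2.17, 1.92 and 1.79. Withdrawal replicates 1 and 2 were the highest of the 15 arrays, and withdrawal replicate 3 lay among the controls. The means were 1.90 ± 0.33 (SD, n = 4) and 2.47 ± 0.54 (n = 3), a difference of 0.56 ± 0.22 that did not pass (limma, adjusted p = 0.189). Without withdrawal replicate 3 it was 0.87 and passed (adjusted p = 0.0228). The mean of 7 other mesothelial markers, 4 of them dim, was 3.23, 2.32 and 1.84 on withdrawal replicates 1, 2 and 3. That is the order of Wt1 in this group, but in each of the other groups the orders differed. Day 7 replicate 4 had the highest marker mean of its group (2.52) and the lowest Wt1 (1.79). The part of these markers in the Wt1 values was not tested.

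Gata6 (probe set 17348400) is the GATA factor of the adult adrenal cortex, and it varied little. The controls read 7.54, 7.54, 7.46 and 7.79, the withdrawal arrays 7.52, 7.54 and 7.42, the day 3 arrays 7.15, 7.24, 7.62 and 7.31, and the day 7 arrays 7.45, 7.66, 7.54 and 7.91. The groups overlapped throughout. The 6 differences lay between -0.25, for day 3 against control (limma, adjusted p = 0.507), and 0.31, for day 7 against day 3 (0.597). Withdrawal and control differed by -0.09, with an interval of -0.37 to 0.19.

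Gata4 (probe set 17307609), which is active in the fetal adrenal and in the gonads and silent in most adult cortical cells, stayed dim in all 4 groups. Its lowest array read 1.47 and its highest 2.05. The group means were 1.79 ± 0.18 (SD, n = 4) in control, 1.71 ± 0.25 (n = 3) at withdrawal, 1.68 ± 0.16 (n = 4) at day 3 and 1.72 ± 0.21 (n = 4) at day 7, and a fall could not have been seen at these levels. Gonadal genes, which GATA4 and WT1 accompany in the gonad, were dim for 9 of 11 measured, and 0 passed at withdrawal against control. In the comparison of day 3 with withdrawal 1 passed as lower, Tcf21, a factor of the adrenal capsule as well as of the gonad, at -0.77 ± 0.18 (limma, adjusted p = 0.0382), which held in 1 of 7 fits without 1 array.

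The 3 NR4A receptors are shown with the sequence before their transcription start, because cAMP acts on such genes through the CREB protein. Their levels also varied together across arrays, as did those of some other pairs among the 9 genes. The promoter table of RefSeq (GRCm38.p6) held 5 of the 9 genes: Nr4a1, Nr4a2, Nr4a3, Nr0b1 and Cited2. Each window below is the 250 bases before the annotated start, 5′ to 3′ on the strand of the gene, at chr15:101266596-101266845 (plus strand) for Nr4a1, chr2:57124004-57124253 (minus strand) for Nr4a2 and chr4:48045055-48045304 (plus strand) for Nr4a3. Capitals mark TGACG, the core of the cAMP response element, which reads CGTCA where it lies on the other strand.
Nr4a1: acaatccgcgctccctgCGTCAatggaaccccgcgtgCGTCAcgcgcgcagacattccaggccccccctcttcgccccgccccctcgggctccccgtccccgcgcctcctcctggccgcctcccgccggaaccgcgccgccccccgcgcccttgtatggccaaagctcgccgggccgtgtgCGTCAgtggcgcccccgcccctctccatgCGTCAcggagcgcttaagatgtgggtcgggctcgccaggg
Nr4a2: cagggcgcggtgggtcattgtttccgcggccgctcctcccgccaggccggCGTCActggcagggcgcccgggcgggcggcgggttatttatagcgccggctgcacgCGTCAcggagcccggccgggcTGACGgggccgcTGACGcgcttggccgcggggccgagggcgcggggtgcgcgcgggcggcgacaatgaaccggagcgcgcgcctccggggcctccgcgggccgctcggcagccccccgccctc
Nr4a3: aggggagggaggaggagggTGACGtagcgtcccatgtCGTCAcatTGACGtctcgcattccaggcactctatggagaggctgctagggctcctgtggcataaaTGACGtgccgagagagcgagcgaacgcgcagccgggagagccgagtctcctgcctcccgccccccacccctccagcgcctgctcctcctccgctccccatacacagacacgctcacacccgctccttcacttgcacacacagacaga

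Each of the 3 windows held 4 copies of TGACG, while the windows of Nr0b1 and Cited2 held 0. In Nr4a1 all 4 were on the other strand, and their first bases lay 233, 213, 69 and 40 bases before the start. In Nr4a2 there were 2 on the other strand, at 200 and 144 bases, and 2 on the strand of the gene, at 123 and 111 bases. In Nr4a3 those on the strand of the gene lay at 231, 205 and 147 bases, and the other one at 213 bases. Of all 32851 promoter windows of that length in the table, searched on both strands, 17.8% held at least 1 copy and 0.137% (45 windows) held at least 4. The core contains a CpG dinucleotide, and the 3 NR4A windows are rich in CpG, with 34 in Nr4a1, 44 in Nr4a2 and 18 in Nr4a3. Among the 7120 windows with at least 18 CpG, 32.6% held at least 1 copy and 0.548% at least 4. Several windows can belong to 1 gene and overlap.

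The full palindromic element TGACGTCA, which contains the core, was in none of the 5 windows (1.55% of all windows). Exact copies of CAAGGTCA and CAAGGCCA of steroidogenic factor 1, AAAGGTCA of NR4A monomers, and AGATAA and TGATAA of GATA factors were not in these 5 windows either. Related sequences were not searched for, so these windows may hold other forms of such elements. The Nr0b1 window, for example, holds cgaggtca, which differs from CAAGGTCA in 1 base. Exact copies of the 5 elements were found in 1.33%, 1.99%, 1.34%, 9.99% and 7.94% of all windows, in the order named. Among the immediate early genes listed below, 9 of the 13 in the table held at least 1 copy of TGACG, and 0 held 4. At least 1 copy was held by 2 of 8 targets of steroidogenic factor 1, 3 of 17 partners and cofactors and 0 of 4 genes with NR4A response elements. It was held by 0 of 10 gonadal genes and by 6 of 17 genes most correlated with a member. Here each gene was counted by its window with the most copies, so these counts cannot be set against the share of windows. The share of all genes with at least 1 copy is not given. Counted by gene, 44 of the 27025 genes in the table had a window with at least 4 copies.

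**Figure D4:**
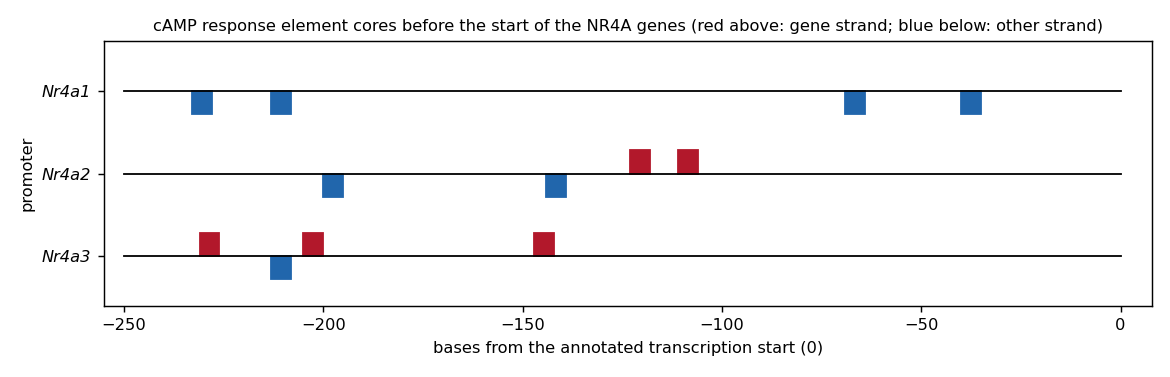
Position of each TGACG core in the 250 bases before the start of Nr4a1, Nr4a2 and Nr4a3, drawn to scale; boxes above the line are on the strand of the gene and boxes below it on the other strand. Each promoter carries 4 boxes, and those of Nr4a1 reach to 40 bases from the start.

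Nr4a1 (probe set 17315178), also known as Nur77, had wide spread within each group. The controls read 6.64, 8.39, 7.26 and 7.94, and the withdrawal arrays 7.93, 9.27 and 8.27. At day 3 the arrays read 8.98, 6.44, 8.84 and 8.70, with replicate 2 more than 2 units under the others. The day 7 arrays read 9.13, 8.57, 9.56 and 9.56, all above the highest control. The means were 7.56 ± 0.77 (SD, n = 4), 8.49 ± 0.70 (n = 3), 8.24 ± 1.20 (n = 4) and 9.21 ± 0.47 (n = 4) in this order. Day 7 exceeded control by 1.65 ± 0.51 (95% interval 0.55 to 2.75), or 3.14-fold, with an unadjusted p of 0.00601 and an adjusted p of 0.69 in limma, where 4 of all genes passed. Withdrawal exceeded control by 0.93 ± 0.56 (adjusted p = 0.433).

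Nr4a2 (probe set 17385374), or Nurr1, read 3.11, 4.35, 3.78 and 2.87 in control and 4.62, 6.42 and 4.56 at withdrawal. The day 3 arrays read 5.06, 3.49, 3.95 and 3.92, and the day 7 arrays 4.63, 4.30, 4.55 and 5.61. Withdrawal lay above all controls, led by replicate 2, and the other groups overlapped control. The difference between withdrawal and control was 1.67 ± 0.49, or 3.19-fold, between means of 5.20 ± 1.06 (SD, n = 3) and 3.53 ± 0.67 (n = 4), and it did not pass (limma, adjusted p = 0.0698). It passed with dim genes left out of the fit (0.042) and without control replicate 2 (0.0472). Without withdrawal replicate 2 it was 1.06 and the adjusted p was 0.3. Day 7 exceeded control by 1.25 ± 0.45 (adjusted p = 0.77).

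Nr4a3 (probe set 17413945), or NOR1, read 5.86, 5.97, 5.69 and 5.63 in control and 6.01, 6.85 and 6.64 at withdrawal. Day 3 gave 6.08, 5.59, 6.53 and 5.99, and day 7 gave 6.19, 6.57, 6.09 and 6.80. Both the withdrawal and the day 7 arrays were above every control, while day 3 overlapped all groups. Withdrawal exceeded control by 0.71 ± 0.23 (limma, adjusted p = 0.106) and day 7 exceeded it by 0.62 ± 0.21 (adjusted p = 0.759). The first of these passed without withdrawal replicate 1, the lowest array of its group (0.96, adjusted p = 0.0434). In each of the 3 genes the control mean was the lowest of the 4 group means, and none of their 18 differences passed over all genes.

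Within groups, the arrays differed most for Nr4a1 and Nr4a2. The residual SD of the fit was 0.84 for Nr4a1 and 0.73 for Nr4a2, at the percentile 99.5 and 99.3 of all genes that are not dim. It was 0.33 for Nr4a3 (percentile 86.9), 0.26 for Cited2 (72.2), 0.24 for Nr0b1 (68.2), 0.17 for Gata6 (39.4) and 0.14 for Nr5a1 (23.8). With group means removed, Nr4a1 correlated with Nr4a2 at r = 0.64 and with Nr4a3 at r = 0.52 over the 15 arrays, and Nr4a2 with Nr4a3 at r = 0.52. These values describe arrays that share handling and groups, and no p is given. In the same measure Nr5a1 and Nr0b1 had r = 0.00 within groups. Some other pairs stood above every NR4A pair, so such values are not particular to the NR4A genes. They were Nr5a1 with Nr4a3 (0.73), Gata6 with Cited2 (0.72), and the dim Gata4 with Cited2 (0.73) and with Gata6 (0.66).

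**Figure D5:**
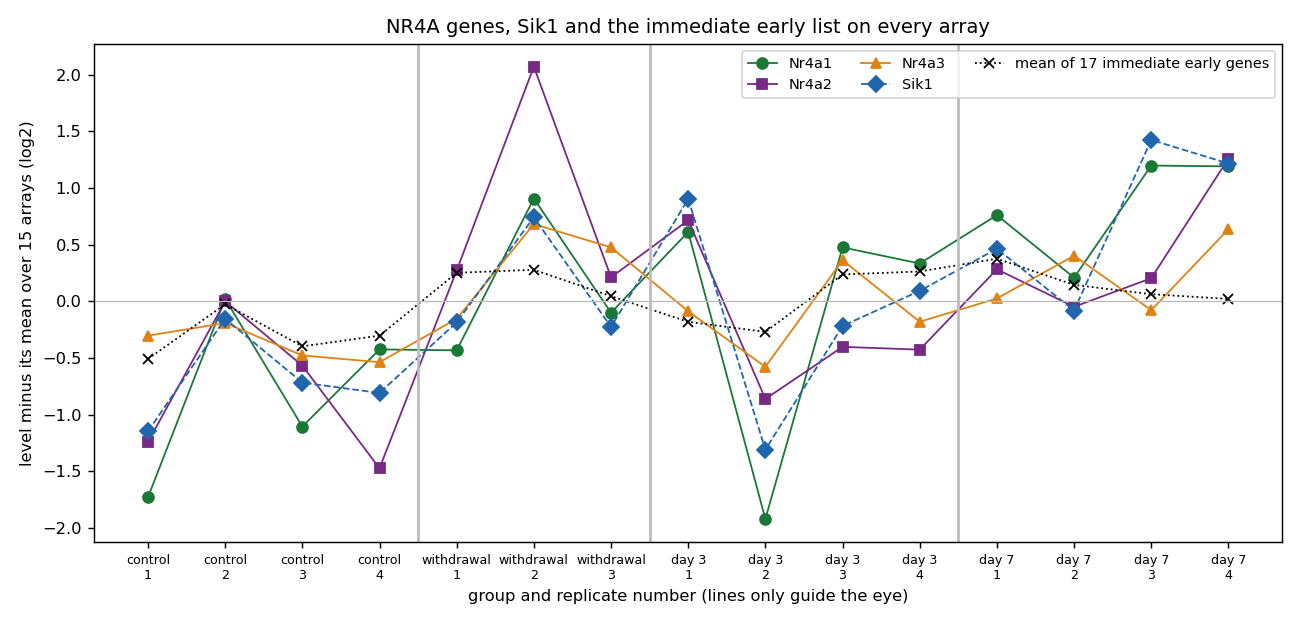
Level of Nr4a1, Nr4a2, Nr4a3, Sik1 and the mean of 17 immediate early genes on each of the 15 arrays, each as log2 distance from its own mean; vertical lines part the groups and connecting lines only guide the eye. Day 3 replicate 2 is the lowest array for Nr4a1, Nr4a3 and Sik1, and withdrawal replicate 2 is the highest for Nr4a2 and Nr4a3.

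The gene whose pattern was most like that of Nr4a1, among 10301 named genes that are not dim, was Sik1, a salt-inducible kinase that cAMP induces in adrenal cells (Pearson r = 0.93 over 15 arrays, 0.87 with group means removed). Sik1 read 4.20, 5.19, 4.63 and 4.54 in control, 5.16, 6.09 and 5.12 at withdrawal, 6.25, 4.04, 5.13 and 5.44 at day 3, and 5.81, 5.26, 6.77 and 6.56 at day 7. Like Nr4a1 it was low in day 3 replicate 2 and above all controls on every day 7 array. Sik1 was picked by its correlation over these same arrays, so this likeness is no separate result. Next came Hnrnpdl, an RNA-binding protein, and Tax1bp3, at r = 0.85 each. With group means removed they had r = 0.87 and 0.88, so Sik1 did not stand out from them in that measure. Nearest to Nr4a2 were Tef, a clock-controlled transcription factor (r = 0.86), and the splicing kinases Clk4 (0.84) and Clk1 (0.81). Nr4a3 was most like Sesn3, a sestrin (0.87), Abr (0.83) and Arhgef17 (0.83).

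For the other members the nearest patterns belonged to genes of varied function. Nr5a1 was most like Slc7a1, a transporter of cationic amino acids (Pearson r = 0.92), Ptprs, a receptor phosphatase (0.90), and Gnat2 (0.89), which all had their lowest group mean at withdrawal, at 6.80, 5.55 and 4.06. Nr0b1 was most like the kinase Tec (0.89), Zmym5 (0.88) and the immune surface protein Cd83 (0.88), and Cited2 was most like Pmp22, a myelin protein (0.91), Zfp503 (0.90) and the creatine kinase Ckb (0.89). These 6 genes had their highest mean at withdrawal. Gata6 was most like Qrich1 (0.84), Khsrp (0.82) and Gbf1 (0.81). Each of these 21 genes is the extreme of a search over 10301, and the values describe these arrays alone.

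Immediate early genes, which respond within minutes to stimuli such as handling, hormones or cAMP, were examined beside the NR4A genes. Of 17 measured, 4 passed as higher at withdrawal than in control and 0 as lower, with a median of 0.50: Atf3 at 1.72 ± 0.30 (limma, adjusted p = 0.00465), Klf4 at 1.07 ± 0.25, Klf2 at 0.66 ± 0.13 and Klf6 at 0.56 ± 0.13, which did not pass with array medians subtracted (0.0568). Without 1 array at a time the Klf4 call held in 4 of 7 fits and the Klf6 call in 2 of 7. The classical members did not pass: Egr1 differed by 0.91 (adjusted p = 0.323), Fos by 0.51 (0.396) and Junb by -0.20 (0.837). At day 7 against control all 17 had higher means, by 0.04 to 1.14 with a median of 0.47, and limma called 0 after adjustment. Klf2 was the 1 that passed as lower at day 3 than at withdrawal, by -0.58 ± 0.13 (adjusted p = 0.0271), which held in 1 of 7 fits without 1 array. The mean of the list ran from 4.14 to 4.63 in control, from 4.70 to 4.93 at withdrawal, from 4.38 to 4.92 at day 3 and from 4.67 to 5.03 at day 7, and the lowest day 3 array was again replicate 2. Their part in the NR4A values was not tested.

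Genes with known NR4A response elements went both ways at withdrawal. They include Cyp21a1, Hsd3b6, Cyp11b2, Fdx1 and Star, which are also listed targets of steroidogenic factor 1. For these genes both lists count the same values, so their counts are not separate observations. Of 7 measured, 3 passed as lower and 2 as higher at withdrawal (median -0.24), and 2 as higher and 1 as lower at day 3 against withdrawal. At day 7 against withdrawal 3 passed as higher, with Cyp21a1 at 1.18 ± 0.09, Fdx1, the ferredoxin that donates electrons to mitochondrial steroid enzymes, at 0.66 ± 0.12 and Star at 0.36 ± 0.08 (limma, adjusted p = 0.0331), the last of which was lost without any 1 array (0.0585 to 0.107). At day 7 against control 0 of the 7 passed. Cyp11b2, whose promoter NR4A receptors bind, passed as higher at withdrawal only among these comparisons, and whether its differences between comparisons differ was not tested.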

How the data were processed

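RNA of 15 adrenal samples was labelled with a WT Pico kit and hybridised to 1 array each, per the labels' protocols. The authors deposited RMA values, which are log2 levels. The submitters' processing notes name RMA and the oligo package, and no version or filter is given there. Of 32736 probe sets, 22399 carried 1 gene symbol in the platform annotation, 1607 several and 8730 none. Only the first kind was used. A gene with several probe sets was represented by that of the highest mean, for 21439 genes in all.

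Groups were compared in R 4.3.3 with limma 3.58.1 (lmFit, eBayes, 2-sided), with 15 arrays and 4 groups in 1 model and Benjamini-Hochberg adjustment across the 21439 genes. The procedure was tested on simulated data. The number of arrays limits the precision, and p-values set each difference against the spread between these arrays. The members and lists (5 pathway and 11 cell type lists) were chosen with earlier results of these data known. Named beside the members are the 3 genes most correlated with each member that is not dim, genes of the pathway lists past the threshold (largest differences first), and a few preset genes; predicted genes and large families were left out of the search for likeness. Alternatives were array medians subtracted, quantile normalization, a filter on dim genes, other rules for probe sets, other variance models, 2 groups alone, a replicate block and each array left out. Promoter windows came from RefSeq.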

Additional observations from a re-analysis of the deposited data

Results flagged for a closer look

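In day 3 replicate 2, Nr4a1 read 6.44, while the nearest other day 3 array read 8.70. The gap of 2.26 was 0.89 of the range of the group, above Dixon's 95% critical value for a group of this size. Of 27 groups of 4 arrays tested over the 9 genes this 1 was marked, and chance marks about 1 in 20. Without this array the Nr4a1 difference of day 3 from control was 1.28, with an adjusted p of 0.281 in limma, in place of 0.68.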

How the results depend on the processing

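Nr0b1 and Cited2 were called at withdrawal against control under all 11 alternatives that kept every array of both groups, and no called member reversed. Members called at day 7 against withdrawal numbered 2 with array medians subtracted or dim genes left out (Nr5a1 joined Nr0b1) and 0 with the 2 groups alone or the replicate block. At day 3 against withdrawal the 2 groups alone gave 0, and the block left 1 member in the F test across groups, which could not be run on 2 groups.

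Over all genes, calls at day 3 against control numbered 53 with array medians subtracted (18 higher, 35 lower; 19 and 9 in the main analysis), 72 without dim genes, 77 with a variance trend and 91 with a robust trend. At day 7 against control the robust trend gave 2. Without dim genes 622 were called at day 7 against withdrawal and 3 at day 7 against day 3, where array weights gave 2. The 2 groups alone gave 524 (withdrawal against control), 161 (day 3 against withdrawal), 154 (day 7 against withdrawal) and, with control as the baseline, 9 at day 3 and 0 at day 7. The replicate block gave 544, 257, 221, 4 and 0 in the same order. Arrays of the same replicate number were not more alike than others in their deviations from group means. The 21 same-numbered pairs had correlations of -0.14 to 0.06, and 63 other pairs -0.10 to 0.13. Whether same-numbered arrays shared handling is not in the labels, and these values cannot settle it.

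Leaving out 1 array gave 459 to 774 genes and 1 to 3 members for withdrawal against control, 209 to 389 and 0 to 1 for day 3 against withdrawal, and 200 to 415 and 0 to 1 for day 7 against withdrawal. It gave 6 to 27 genes for day 3 against control, 0 to 9 for day 7 against control and 0 to 7 for day 7 against day 3, with 0 members in each. The F test passed for 0 to 2 members, and for 0 without withdrawal replicate 2 or 3. Gata4 and Wt1 had no value in the fit without dim genes, and at their signal a fall could not be measured.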
